A study of Mus musculus with 24 samples.

Results

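Cone phototransduction genes encode the proteins with which cone photoreceptors turn light into an electrical signal. The 10 genes described here were chosen by symbol. No measured value entered the rule, though earlier results of these data were known. The 10 are the opsins Opn1sw and Opn1mw, cone arrestin Arr3, the transducin subunits Gnat2 and Gngt2, the phosphodiesterase subunits Pde6c and Pde6h, the channel subunits Cnga3 and Cngb3, and the cyclase activator Guca1a. All 10 were matched, among 21887 protein-coding genes on the main chromosomes of GRCm38.p6. Each gene was examined with 5 kb on either side. The data were 8 lists of CUT&RUN peaks made on the retina of wild-type mice aged 2 days (P2) or 17 days (P17) after birth. CUT&RUN maps where a chromatin protein or histone mark lies by cutting the DNA around an antibody bound to it. There was 1 list per age for the transcription factors SOX8 and SOX9 and for the histone marks H3K4me3 and H3K27ac. The labels give 600000 nuclei per reaction and, per age, 4 SOX8 libraries from 2 antibodies, 2 libraries for each other target and 2 IgG control libraries, which were not analysed here. Strain and sex of the mice were not given in the sources used here, and no other allele or agent is named.

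In a cone, light activates an opsin, the opsin activates transducin, and transducin releases the phosphodiesterase from its inhibitory subunit. The fall in cyclic GMP closes a cation channel, arrestin shuts the opsin off, and guanylate cyclase, under calcium-sensing activators, restores cyclic GMP. Mouse cones are far outnumbered by rods, which use a parallel set of proteins, and S opsin appears earlier in development than M opsin. H3K4me3 is the histone mark of active promoters, while H3K27ac is also found at enhancers.

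None of the 10 genes had a SOX8 or SOX9 peak at either age. H3K4me3 peaks reached 1 gene at P2 (Gnat2) and 2 genes at P17 (Gnat2 and Guca1a). H3K27ac peaks reached 8 genes at P2 and 6 at P17, and the opsins were opposite: Opn1sw had H3K27ac peaks at P2 only and Opn1mw at P17 only. Each list is the authors' single result for a target and age and holds positions but no heights, so there is no replicate error and no test, and a missing peak means only that the list holds none there. Each reaction sampled the whole retina, so fewer cells with a mark and less mark per cell cannot be told apart.

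Among all protein-coding genes, a peak in the gene or within 5 kb was found for 15.1% with P2 SOX8, 27.7% with P2 SOX9, 13.0% with P17 SOX8 and 15.7% with P17 SOX9. Those shares correspond to 1.51, 2.77, 1.30 and 1.57 genes in 10, against 0 cone genes in each list. No SOX peak in any of the 4 lists was the state of all 10 cone genes and of 66.1% of protein-coding genes. H3K4me3 lay at 49.3% of protein-coding genes at P2 and at 50.9% at P17, so that 1 and 2 cone genes stood against 4.93 and 5.09 in 10. H3K27ac reached 81.8% of protein-coding genes at P2 and 57.0% at P17, close to the 8 and 6 cone genes. The P2 H3K27ac list is broad: it held 287845 peaks, against 29909 at P17, and reached 5 of 6 marker genes of other tissues, of which the P17 list reached 1. With its 29909 widest peaks only, it reached 5 cone genes and 40.5% of protein-coding genes.

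**Figure D1:**
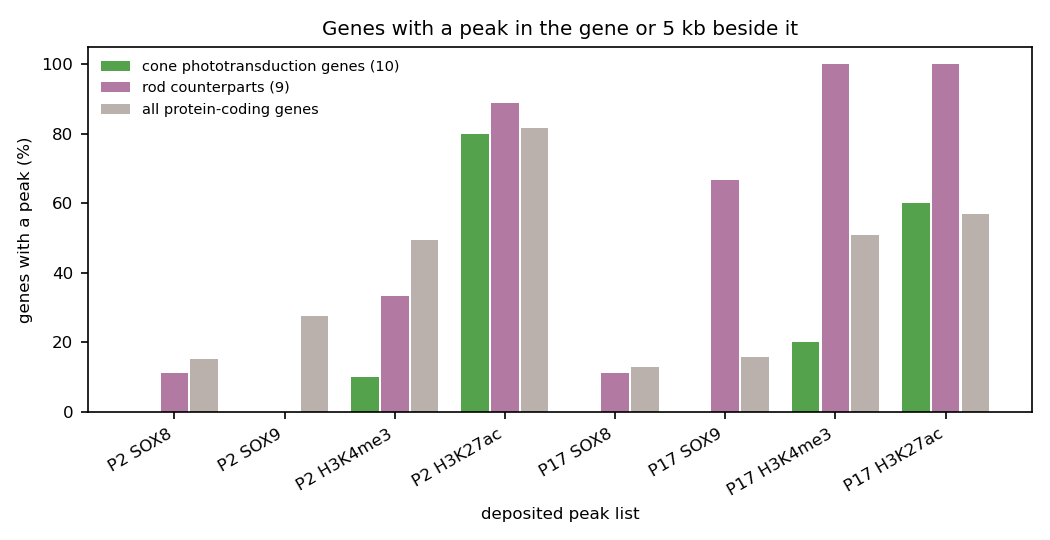
Percent of genes (y axis) with at least 1 peak in the gene or 5 kb beside it in each deposited list (x axis), for the 10 cone genes, 9 rod counterparts and all 21887 protein-coding genes. The cone genes have no bar in the 4 SOX lists and stand at 10% and 20% for H3K4me3, while all rod counterparts have both marks at P17.

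Opn1sw encodes the short-wavelength opsin (chromosome 6, 29376671 to 29380513). At P2, 3 H3K27ac peaks lay at it, 890, 6428 and 1797 bp wide. The peak of 6428 bp (29375564 to 29381991) covered 100% of the gene body and ran from 1.48 kb before the start site to 4.95 kb after it, touching the end of the neighbouring gene Calu. Only 2.99% of the P2 H3K27ac peaks were as wide or wider, and 2.19% of protein-coding genes were fully covered in that list. At P17 no H3K27ac peak lay within 5 kb, and the nearest was 13.7 kb away at Ccdc136. The H3K4me3 peaks nearest to Opn1sw were 13.9 kb away at P2 and 15.4 kb away at P17, also at Ccdc136.

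Opn1mw encodes the medium-wavelength opsin (X chromosome, 74127466 to 74150756) and showed the opposite order. No P2 H3K27ac peak lay within 5 kb, and the nearest was 10.9 kb away. That list reached 59.4% of X-linked protein-coding genes, against 83.8% of autosomal ones. At P17 a single H3K27ac peak of 3996 bp (74121850 to 74125845) lay from 5.62 to 1.62 kb before the start site, touched no other gene and left the gene body uncovered. No H3K4me3 peak lay within 5 kb at either age. H3K27ac at P17 without any at P2 was rare: 69 of 21887 protein-coding genes, or 0.315%, had it. Of these, 2 were members of the set, Opn1mw and Guca1a, the latter also used in rods. The rod counterpart Guca1b, adjacent to Guca1a and reached by the same peak, was also among the 69. With the P2 list limited to its 29909 widest peaks, 23.8% of protein-coding genes and 4 cone genes were in that state, Arr3 and Pde6h being added. The bases before the start site are shown for both opsins because the marks there differ. They are RefSeq sequences of GRCm38.p6, written 5′ to 3′ on the strand of the gene, the last base lying just before the start site. The Opn1sw stretch is chr6:29380514-29380763, minus strand, all 250 bases of it inside the P2 H3K27ac peak. The Opn1mw stretch is chrX:74127216-74127465, plus strand, outside every peak. Capitals mark 3 short motifs searched on both strands: ACAAT, the core letters of SOX binding, TAATCC, bound by the photoreceptor factors CRX and OTX2, and AGGTCA, the letters that nuclear receptors such as those for thyroid hormone read.
Opn1sw: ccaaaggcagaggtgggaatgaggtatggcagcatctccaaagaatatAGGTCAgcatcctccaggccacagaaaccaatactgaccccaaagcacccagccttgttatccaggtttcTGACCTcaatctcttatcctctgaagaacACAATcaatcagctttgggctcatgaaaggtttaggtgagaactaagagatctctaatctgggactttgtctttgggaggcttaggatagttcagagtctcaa
Opn1mw: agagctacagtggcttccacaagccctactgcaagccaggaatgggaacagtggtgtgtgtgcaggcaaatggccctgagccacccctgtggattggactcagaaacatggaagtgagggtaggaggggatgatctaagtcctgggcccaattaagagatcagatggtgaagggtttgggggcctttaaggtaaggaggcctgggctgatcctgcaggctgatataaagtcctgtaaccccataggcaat

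Opn1sw held the SOX letters at bases -103 to -99 from the start site. It held the nuclear receptor letters at 2 places, at -202 to -197 and, in reverse as TGACCT, at -132 to -127. Opn1mw held none of the 3 motifs. Among 21263 such stretches of 250 bases at protein-coding genes, 25.1% held ACAAT or its reverse ATTGT, 12.8% held AGGTCA or TGACCT and 5.82% held TAATCC or GGATTA. These matches are letters only and overlapped no other match.

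Arr3, the cone arrestin that quenches activated opsin (X chromosome, 100605480 to 100618493), had H3K27ac only before its start site. The P2 peak was 623 bp wide (100603519 to 100604141), with 93.1% of its list as wide or wider, and ended 1.36 kb before the start site. The P17 peak was 3664 bp wide (100601167 to 100604830), ended 0.667 kb before the start site and contained the whole P2 peak. No gene lay under either peak. An H3K4me3 peak 6.18 kb away at P2, at Pdzd11 and Kif4, lay just outside the 5 kb window, and the nearest at P17 was 109.3 kb away. Opn1mw and Arr3 are the X-linked genes of the set, and SOX peaks reached few genes on that chromosome: of 966 protein-coding genes there, 1.24% were reached by P2 SOX8, 4.97% by P2 SOX9, 0.518% by P17 SOX8 and 1.04% by P17 SOX9. The other 8 genes are autosomal and had none either.

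Both transducin subunits had H3K27ac at both ages. Gnat2, the cone alpha subunit (chromosome 3, 108086788 to 108101432), had 5 H3K27ac peaks at P2 and 3 at P17. The share of its gene body under them was 18.9% at P2 and 72.0% at P17, and at P17 only 7.90% of protein-coding genes were covered as much or more. The P2 peaks left the start site of the promoter table (108093066) bare, the nearest ending 2.31 kb before it. At P17 a peak of 9326 bp (108089295 to 108098620) spanned it, from 3.77 kb before to 5.55 kb after, and lay over no other gene. Gnat2 had H3K4me3 at both ages over the 5′ end of its longest gene model (108086788), which lies before the start site of the promoter table. Peaks of 3406 bp at P2 and 4667 bp at P17 also overlapped Ampd2 and Gm12500, covered 4.04% and 7.29% of the Gnat2 gene body, and ended 5.69 and 5.21 kb before the table's start site. When a peak was given only to the gene body nearest its centre, Gnat2 had no H3K4me3 peak at either age.

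Gngt2, the cone gamma subunit (chromosome 11, 95841772 to 95845734), was covered by H3K27ac at both ages. A P2 peak of 5487 bp covered 100% of the gene, and a P17 peak of 3970 bp (95841873 to 95845842) covered 97.5% and lay wholly inside the P2 peak. Both also touched the neighbouring gene Abi3, which overlaps Gngt2. Cover as high at P17 was found for 4.26% of protein-coding genes. No H3K4me3 peak lay closer than 11.5 kb at P2 or 11.2 kb at P17. The gene thus had H3K27ac without H3K4me3 at P17, as had Opn1mw, Arr3 and Pde6h, a state of 4 cone genes and of 9.07% of protein-coding genes. At P2 that state held for 7 cone genes and 32.6% of protein-coding genes.

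The phosphodiesterase subunits differed from each other. Pde6c, the catalytic subunit (chromosome 19, 38132781 to 38183955), had 7 H3K27ac peaks at P2, from 911 to 5166 bp wide, over 20.7% of its gene body. The widest (38178728 to 38183893) lay at the end of the gene toward Fra10ac1. At P17 it had none, and its nearest H3K27ac and H3K4me3 peaks lay 39.3 and 38.3 kb away at Fra10ac1. Pde6h, the inhibitory subunit (chromosome 6, 136952218 to 136963485), kept H3K27ac at both ages, over 32.8% of its body at P2 and 37.3% at P17. Its 5 P2 peaks were 784 to 1537 bp wide and left the start site (136954523) bare by 87 bp. Its 2 P17 peaks were 4126 and 4615 bp wide, and the second (136951805 to 136956419) spanned the start site. Of the 5 P2 peaks, 4 lay entirely inside the P17 peaks. No annotated gene lay within 5 kb, and the nearest H3K4me3 peak was 122.6 kb away at P2 and 122.4 kb away at P17.

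The channel subunits had H3K27ac at P2 only. Cnga3, the alpha subunit (chromosome 1, 37218241 to 37263384), had 7 narrow H3K27ac peaks at P2, from 780 to 1804 bp, over 10.2% of its body, and none touched either of its 2 start sites. Cngb3, the beta subunit (chromosome 4, 19280850 to 19510623), is the longest of the 10 at 229.8 kb. It had 23 H3K27ac peaks at P2, from 518 to 3635 bp, over 10.3% of its body. Cover that high or higher was found for 64.6% and 64.5% of protein-coding genes in the same list. At P17 neither had a peak of either mark, the nearest H3K27ac lying 36.2 kb from Cnga3 at Inpp4a and 58.3 kb from Cngb3 at Cpne3. H3K27ac at P2 and not at P17 was thus the state of Opn1sw, Pde6c, Cnga3 and Cngb3, or 4 cone genes, and of 25.1% of protein-coding genes. These 4 genes had neither mark at P17, as did 40.0% of protein-coding genes. With the shortened P2 list, Cnga3 had no P2 peak.

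Guca1a, which encodes a calcium-sensing activator of guanylate cyclase used in rods and cones (chromosome 17, 47394557 to 47413514), was the only one of the 7 genes with an entry in the promoter table that had H3K4me3 over that start site. At P2 it had no peak in any list, the nearest H3K27ac lying 10.4 kb and the nearest H3K4me3 24.7 kb away. At P17 an H3K4me3 peak of 13094 bp (47391559 to 47404652) covered 53.3% of the gene body, and only 0.582% of that list was as wide or wider. An H3K27ac peak of 35339 bp (47367744 to 47403082), in the widest 1.61% of its list, covered 45.0% of the body. Both spanned the start site at 47400606, and both also overlapped Guca1b, the adjacent gene for a related activator, so that the marks of the pair are not independent. The H3K27ac peak was not given to Guca1a when its centre, or at least 50% of it, had to lie in the window. Nor was it when a peak went only to the gene body nearest its centre. A second H3K4me3 peak of 9244 bp, over Guca1b and Mrps10, lay 4.84 kb from the gene, just inside the window. H3K4me3 at P17 and not at P2 was found at 5.0% of protein-coding genes. No H3K4me3 at either age was the state of 8 cone genes, all but Gnat2 and Guca1a, and of 45.7% of protein-coding genes.

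Across the set, the 53 H3K27ac peaks at P2 had a median width of 1014 bp, against 1166 bp in the whole list, and 10 of them overlapped a P17 peak. The 9 peaks at P17 had a median of 4126 bp, against 3268 bp in the list, and 8 were wider than that list median. Of these 9, 7 overlapped a P2 peak. For the Guca1a peak only 1.95% of its width did so, outside the 5 kb window of Guca1a. The shares of all H3K27ac peaks that overlapped the other age were not computed. The P2 list covered 525 Mb and the P17 list 173 Mb, so these overlap counts are not a result about the cone genes. H3K27ac at both ages was found at Arr3, Gnat2, Gngt2 and Pde6h, or 4 genes, and at 56.7% of protein-coding genes. The 2 P17 peaks with no P2 overlap were the Opn1mw peak and a peak of 2894 bp at the end of Gnat2. A start site in the promoter table was known for 7 of the 10 genes (not for Gngt2, Pde6c and Cngb3). H3K27ac covered it in 1 of 7 at P2 (Opn1sw) and in 3 of 7 at P17 (Gnat2, Pde6h and Guca1a), against 60.7% and 46.6% of 17492 protein-coding genes with such an entry. H3K4me3 covered it in 0 of 7 at P2 and in 1 of 7 at P17, against 44.8% and 46.0%. The 5′ end of the longest Gnat2 model is not in that table and is not counted here.

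**Figure D2:**
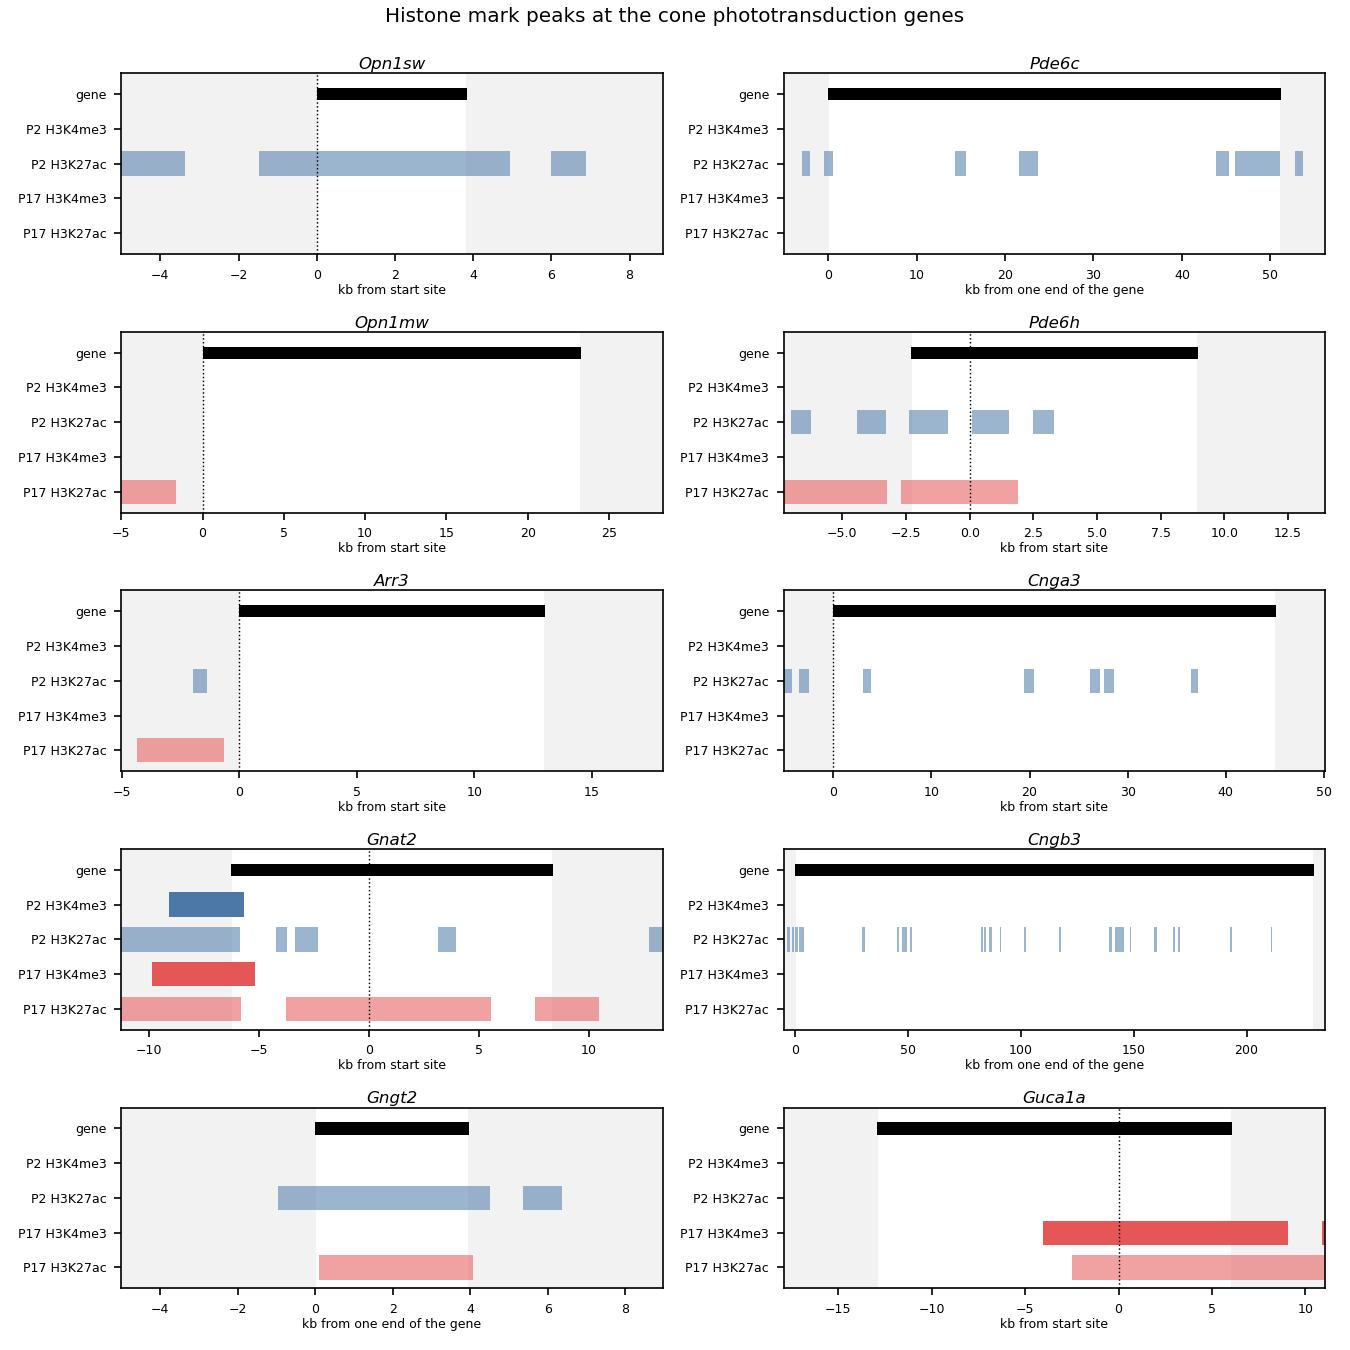
Positions of H3K4me3 peaks (dark bars) and H3K27ac peaks (pale bars) at P2 (blue) and P17 (red) at each of the 10 genes, with the gene in black, the 5 kb flanks in grey and the start site dotted where the promoter table gives it (x axis in kb, scaled by gene and drawn in the direction of transcription where the strand is known). P17 H3K27ac lies over the start sites of Gnat2, Pde6h and Guca1a and before those of Opn1mw and Arr3. Guca1a alone has H3K4me3 over a dotted start site, and Gnat2 has it over the 5′ end of its gene model.

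**Figure D3:**
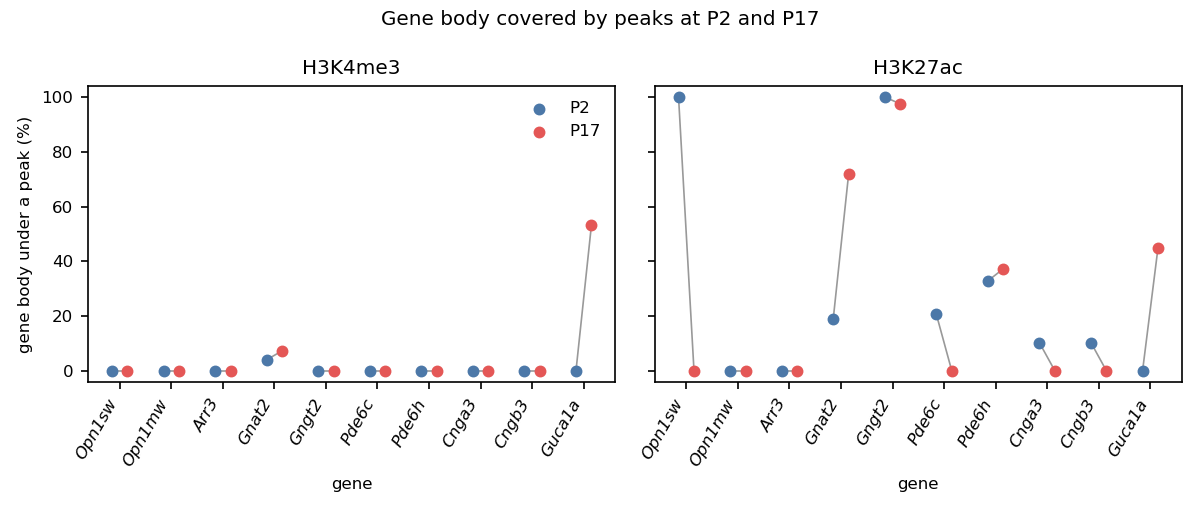
Percent of each gene body under an H3K4me3 or H3K27ac peak (y axis) at P2 and P17 for each gene (x axis), with a line joining the ages. Opn1sw goes from 100% to 0% in H3K27ac, Gnat2 from 18.9% to 72.0%, and 8 genes lie at 0% for H3K4me3 at both ages.

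The stretches before the start sites that P17 H3K27ac covered are shown for comparison with the opsins, with the same motifs in capitals. They are chr3:108092816-108093065, plus strand (Gnat2), chr6:136954273-136954522, plus strand (Pde6h), and chr17:47400607-47400856, minus strand (Guca1a). All 250 bases of each lay inside a P17 H3K27ac peak, and those of Guca1a also inside H3K4me3.
Gnat2: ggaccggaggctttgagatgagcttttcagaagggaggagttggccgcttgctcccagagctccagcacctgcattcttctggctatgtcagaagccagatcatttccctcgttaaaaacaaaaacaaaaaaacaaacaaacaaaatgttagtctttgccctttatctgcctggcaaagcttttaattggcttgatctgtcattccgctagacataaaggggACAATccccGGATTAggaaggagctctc
Pde6h: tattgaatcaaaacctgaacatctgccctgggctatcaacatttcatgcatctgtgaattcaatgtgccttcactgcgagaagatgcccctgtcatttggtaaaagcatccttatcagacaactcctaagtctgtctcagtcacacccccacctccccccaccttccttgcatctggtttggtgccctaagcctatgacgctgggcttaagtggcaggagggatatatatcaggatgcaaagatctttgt
Guca1a: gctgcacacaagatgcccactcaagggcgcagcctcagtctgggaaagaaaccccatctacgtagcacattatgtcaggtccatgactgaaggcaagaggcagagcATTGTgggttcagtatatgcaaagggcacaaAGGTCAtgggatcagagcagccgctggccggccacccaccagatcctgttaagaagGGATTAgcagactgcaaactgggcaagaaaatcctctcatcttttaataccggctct

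Gnat2 held the SOX letters at -28 to -24 and the homeodomain letters in reverse, GGATTA, at -19 to -14. Guca1a held ATTGT at -144 to -140, AGGTCA at -113 to -108 and GGATTA at -57 to -52, and Pde6h held none of the 3. Over the 8 member stretches (Cnga3 has 2 start sites), 4 held the SOX letters, 2 the homeodomain letters and 2 the nuclear receptor letters. Over all 21263 stretches the shares were 25.1%, 5.82% and 12.8%. All 8 had less G and C than the median stretch, with 42.8 to 53.2% against 55.6%. They had 0 to 5 CG dinucleotides, against a median of 10 over the 21263 stretches.

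The SOX peaks nearest to the cone genes lay outside them. At P2 the distance from the gene to the nearest SOX9 peak ranged from 11.8 kb (Gngt2) to 1418 kb (Arr3), with a median of 72.3 kb, against 62.6 kb over all protein-coding genes. For P2 SOX8 it ranged from 77.2 kb (Pde6c) to 6392 kb (Arr3), with medians of 188.3 and 177.4 kb. At P17 the SOX8 distances ran from 14.9 kb (Gngt2) to 38220 kb (Opn1mw), with medians of 380.2 and 292.4 kb. The P17 SOX9 distances ran from 76.6 kb (Pde6c) to 2976 kb (Cngb3), with medians of 252.3 and 231.9 kb. In each list 5 or 6 of the 10 genes were farther from a peak than the median gene. A wider flank of 50 kb, chosen after the data were seen, took in P2 SOX9 peaks for 4 cone genes, against 46.2% of protein-coding genes, and a P17 SOX8 peak for Gngt2, against 24.8%.

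For Opn1sw the nearest P2 SOX9 peak, 27.8 kb away, lay at Calu, and for Cnga3 it lay at Inpp4a, 35.7 kb away. For Gngt2 the nearest P2 SOX9 peak (95857530 to 95860522) touched no protein-coding gene and the nearest P17 SOX8 peak lay at Phospho1. H3K4me3 of the same age was overlapped by all 10 of the nearest P2 SOX8 peaks and by 8 of 10 for P2 SOX9, 6 of 9 for P17 SOX8 and 8 of 10 for P17 SOX9. In the whole lists these shares were 90.1%, 79.8%, 69.7% and 66.5%.

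**Figure D4:**
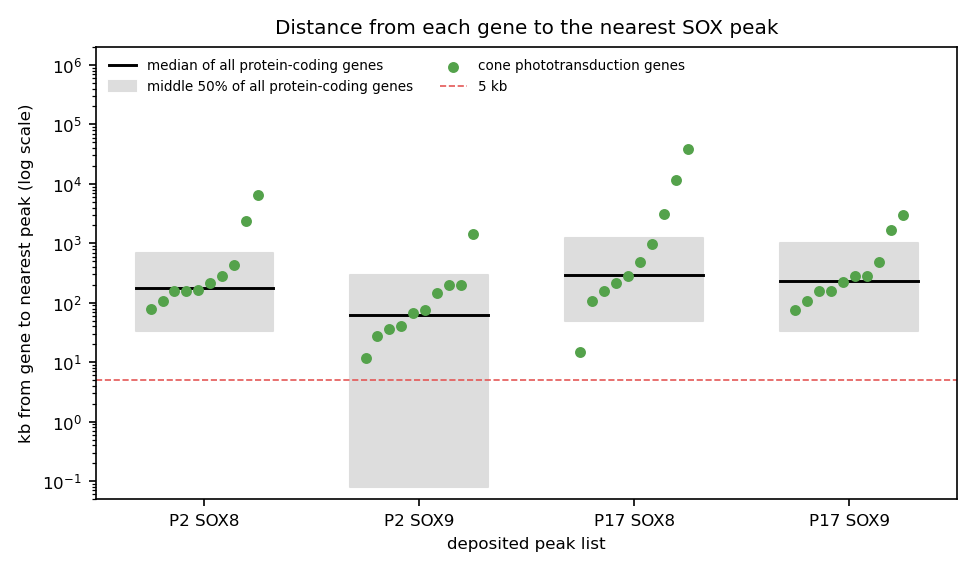
Distance in kb (log scale, y axis) from each of the 10 cone genes (points, ordered by distance) to the nearest peak of each SOX list (x axis), with the median (line) and middle 50% (grey) of all protein-coding genes and 5 kb as a dashed line. Every point lies above 5 kb, the lowest at 11.8 kb, and the points spread around the medians of all genes.

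The rod proteins with the same tasks were read beside the cone genes. Of 9 rod counterparts, all 9 had P17 H3K4me3 and all 9 P17 H3K27ac, 6 were reached by P17 SOX9 and 1 by P17 SOX8. The shares over all protein-coding genes were 50.9%, 57.0%, 15.7% and 13.0%. At P2, 8 had H3K27ac, 3 had H3K4me3, 1 had SOX8 and 0 had SOX9, against 81.8%, 49.3%, 15.1% and 27.7%. Paired by task, the cone gene had less of its body under P17 H3K27ac than its rod counterpart in 9 of 9 pairs, and the same held for P17 H3K4me3. The opsins were not paired, Pde6c enters 2 pairs, and no test was made. Guca1a and Guca1b lie under the same P17 peaks of both marks, so that pair compares parts of shared peaks. Guca1a is also used in rods, so the pair does not set a gene of cones alone against a rod gene. The gap in P17 H3K27ac was small for the transducin gamma subunit and wider for the alpha subunit: Gngt2 had 97.5% and Gngt1 100%, while Gnat2 had 72.0% and Gnat1 100%. Pde6h had 37.3% where Pde6g had 100%, and Pde6c had 0% where Pde6a had 60.3% and Pde6b 88.7%. P2 H3K27ac showed no such order, with the cone gene lower in 4 pairs, higher in 4 and equal in 1.

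**Figure D5:**
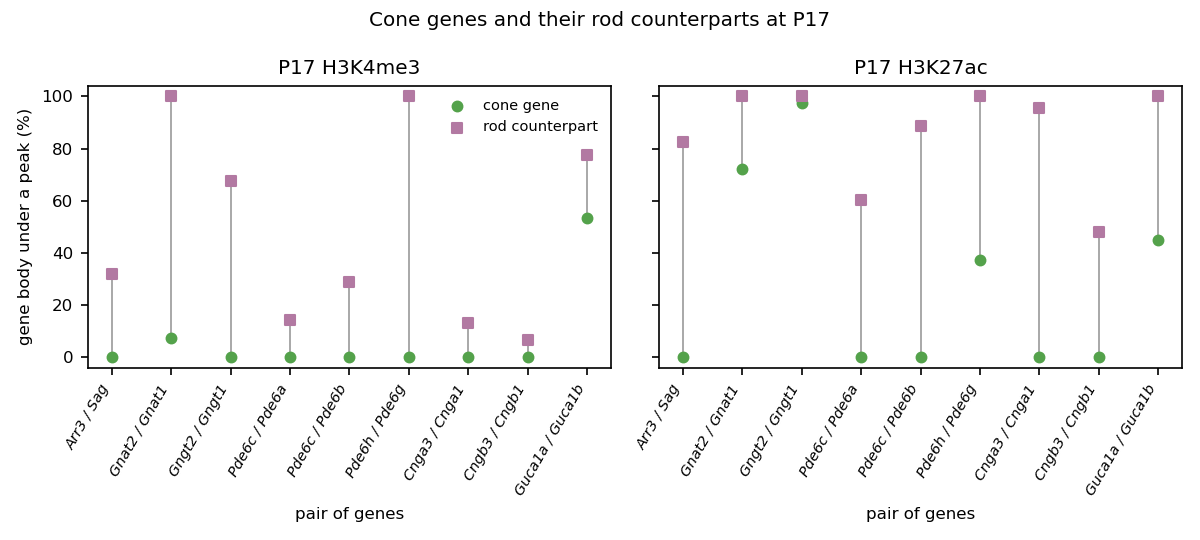
Percent of the gene body under P17 H3K4me3 or P17 H3K27ac peaks (y axis) for 8 cone genes (circles) and their rod counterparts (squares), with a line joining the pair (x axis). The square lies above the circle in all 9 pairs for both marks, most narrowly for Gngt2 at 97.5% and Gngt1 at 100% in H3K27ac. Guca1a and Guca1b share their peaks, and Guca1a is used in rods as well as cones.

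Of 13 other phototransduction genes, 13 had P17 H3K27ac, 12 P17 H3K4me3, 7 P17 SOX9 and 2 P17 SOX8. The shares over all protein-coding genes were 57.0%, 50.9%, 15.7% and 13.0%. At P2, 13 had H3K27ac, 7 H3K4me3, 4 a SOX9 and 1 a SOX8 peak, against 81.8%, 49.3%, 27.7% and 15.1%. Gnb3, the transducin beta subunit of cones, was the only one of the 13 counted in all 4 SOX lists. Gnb3 has close neighbours, and the P2 SOX8 peak lay 3.11 kb outside Gnb3, so the peaks cannot be given to Gnb3 alone. Slc24a2, the cation exchanger of cones, had P17 H3K27ac over 4.07% of its body, no H3K4me3 at either age and a SOX9 peak at P2 only.

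The marker lists were checked once. All 6 retinal markers used (such as Rax, Six3 and Crx) had H3K4me3 at both ages, and 0 of 6 markers of other tissues had it at either age. Of 5 markers of the pigment epithelium, 2 had it at both, though the Best1 peak at P2 lay 0.62 kb and the Rrh peak at P17 3.49 kb outside the gene. Over all protein-coding genes, 4.59 in 10 had H3K4me3 at both ages and 45.7% at neither. Müller glia, which express SOX8 and SOX9, were read through 10 markers, of which 7 were reached by P2 SOX9, 5 by P2 SOX8, 1 by P17 SOX9 and 1 by P17 SOX8. The shares over all protein-coding genes were 27.7%, 15.1%, 15.7% and 13.0%, so the P17 SOX counts were near them. Of the same 10 markers, 8 had H3K4me3 and 10 H3K27ac at P2, against 49.3% and 81.8% of protein-coding genes. At P17 the counts were 3 and 6, against 50.9% and 57.0%, so fewer peaks at P17 than at P2 were not particular to the cone genes.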

How the data were processed

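The deposited data are 8 peak lists in GRCm38, holding the chromosome, start and end of each peak. Per the submitters' processing notes, Bowtie2 and SEACR were used. Their settings and versions, the threshold, the use of the IgG libraries and the way the libraries of a list were combined are not given in the sources used here. The score field was 0 in every line of the deposited lists. Library depth is unknown. Lists of unequal depth or threshold could differ in peak number and width for that reason alone.

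Gene ends and start sites came from RefSeq tables of GRCm38.p6, and positions are counted from 1. Exons and introns were not read. A gene had a peak when they overlapped by 1 bp or more within 5 kb. The shares of gene bodies covered, the distances and the motif matches were computed in Python 3.11.15 with pandas 2.3.3. The shares and distances, but not the motif matches, were tested on simulated data. The genes named are the members, the fixed lists, and genes under or nearest to the peaks described. Some genes are not reported here. Members and lists were chosen with earlier results of these data known. Alternatives were other flanks, overlap rules, the wider 50% of each list, equal list lengths, autosomes, and genes of the members' length range.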

Additional observations from a re-analysis of the deposited data

How the results depend on the processing

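Of 76 recomputed member counts, 65 stayed within 1.5 times the reported count. The 4 SOX counts were 0 in 34 of 36 alternatives. Only the flanks of 10 and 50 kb could raise a count of 0, because every other setting narrows the main rule. Those zeros were fixed in advance and also enter the 65. With the 10 kb flank all 4 SOX counts stayed 0. The exceptions came with the 50 kb flank, chosen after the data were seen: 4 genes for P2 SOX9 and 1 for P17 SOX8. That flank also gave 8 genes with P2 and 7 with P17 H3K4me3, against 65.5% and 66.7% of protein-coding genes. At that flank the cone genes were thus not below the shares over all genes. For P2 H3K4me3 the count was 2 with a 10 kb flank, against 52.1%, and 0 with the wider 50% of the list, against 27.1%. It was 0 when a peak went only to the nearest gene body, which gave 1 for P17 H3K4me3. The 29909 widest P2 H3K27ac peaks gave 5 genes with P2 H3K27ac, against 40.5% of protein-coding genes. They gave 4 with H3K27ac at P17 and not at P2, against 23.8%, a count that was 1 without a flank, against 0.704%. The settings for this last count were also chosen with the values known. The cause of these moves was not tested beyond how each setting is built.

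Among 16994 protein-coding genes between the shortest and longest member in length, the background shares were higher, at 17.4% for P17 SOX9 and 30.8% for P2 SOX9. The median member's gene body under P2 H3K27ac was 14.6% with the full list and 0.791% with its 29909 widest peaks. No paired analysis was possible because the lists carry no replicate numbers, and for the same reason no replicate could be left out. The unknown depth limits every statement that a list holds no peak.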

Other observations

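Among 9 regulators of photoreceptor identity, 8 had a SOX8 or SOX9 peak at P17 and 5 at P2. The shares over all protein-coding genes were 1.95 in 10 at P17 and 2.84 in 10 at P2. Rxrg, which encodes a retinoid X receptor of cones, had neither at either age. It had 11 H3K27ac peaks at P2 over 36.5% of its body, and at P17 neither mark, with the nearest H3K27ac peak 158.3 kb away. Thrb, the thyroid hormone receptor gene that acts in M opsin expression, had H3K27ac over 60.6% of its body at P2 and 36.8% at P17, H3K4me3 at both ages, and a SOX8 peak of 2318 bp at P17 only. Crx, which encodes a homeobox factor of rods and cones, lay in all 8 lists, and P17 SOX9 peaks covered 46.1% of its body.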
